A study of Petunia x hybrida with 22 samples.

Results

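Regions of the petunia genome that carried less H3K4me3 in the evening than in the morning, and that overlapped no listed change of H3K36me3, were examined in corolla tissue, the showy petals of the flower. They were defined from the authors' lists of islands, which are stretches where reads of one library exceed those of the other. Falling H3K4me3 islands of replicates 1 and 2 were merged where they shared at least 1 bp, and a merged region was kept when both replicates contributed to it and when it touched no base of any H3K36me3 island, higher or lower, of replicate 1 or 3. This left 641 regions on 407 scaffolds, which is 38.7% of the 1658 regions where H3K4me3 was lower in both replicates. The other 1017 regions overlapped an H3K36me3 island and serve for comparison. The direction and size of the H3K4me3 difference and the lack of a listed H3K36me3 island chose the regions. Both are therefore described below and not tested.

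The study sampled Petunia x hybrida of cultivar Mitchell, grown in a greenhouse with 14 h of light (from 6AM to 8PM) and 10 h of darkness. Chromatin was taken from the corolla at 7PM, near the end of the light period, and at 7AM, soon after its start, and precipitated with antibodies to H3K4me3, H3K36me3, H3K27ac or H3K9ac. Every group was of the same cultivar and tissue and was fixed with 1% formaldehyde, so that time of day was the labelled difference. There were 2 biological replicates per mark and time, and the 6 input samples among the 22 were not used here. The number of flowers behind a sample is not given in the sources used here, and no gene annotation was used, so the tissue label was not checked against marker genes. The H3K4me3 libraries held between 27700344 and 51116862 reads. The H3K36me3 libraries held between 26643442 and 43918569. The acetylation libraries were shallower, with 6721831 to 14140437 reads (H3K27ac) and 11507185 to 15757663 (H3K9ac).

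H3K4me3 is a methyl mark that lies around the start of active genes, where enzymes of the COMPASS family place it. H3K36me3 is laid down along transcribed gene bodies by SET2-type enzymes that travel with RNA polymerase II. H3K27ac and H3K9ac are acetyl marks of active promoters and, for H3K27ac, of enhancers, and they are placed and removed within short times by acetyltransferases and deacetylases. In Arabidopsis, acetylation and H3K4me3 at genes of the circadian clock are known to vary over the day. Petunia of this cultivar releases its floral scent at night, and the enzymes and regulators of scent formation follow a daily rhythm.

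Levels are given in CPM (counts scaled to the library total) per kb of island, so that regions of different length can be compared. In the 641 regions the median H3K4me3 level of replicate 1 was 1.33 CPM per kb at 7PM and 3.23 at 7AM. In replicate 2 it was 0.748 CPM per kb at 7PM and 2.32 at 7AM. Both 7PM libraries lay below both 7AM libraries in 614 of the 641 regions, against 96.4% of all 1658 falling regions, a count that the choice of regions largely fixes. The log2 fold of 7PM over 7AM, computed after adding 1 read to each count, had a median of −1.36 over the 641 regions, with a middle range from −1.60 to −1.20 and extremes of −3.30 and −1.02. The median over the 1017 regions with listed H3K36me3 islands was −1.29. The correlation between the folds of the 2 replicates across the 641 regions was low (Pearson r = 0.27, Spearman rho = 0.21, given as a description across regions). The lists cut both replicates at a 2-fold fall, so this correlation cannot show how alike the replicates are. Replicate 2 had the larger difference in 479 regions (74.7%, against 71.7% of all 1658 falling regions), and its median log2 fold was −1.46, against −1.20 in replicate 1. Over all 1658 falling regions the medians were −1.39 in replicate 2 and −1.19 in replicate 1, so this gap is not particular to the set. Fewer cells carrying the mark and less of the mark per cell cannot be told apart in whole tissue.

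**Figure D1:**
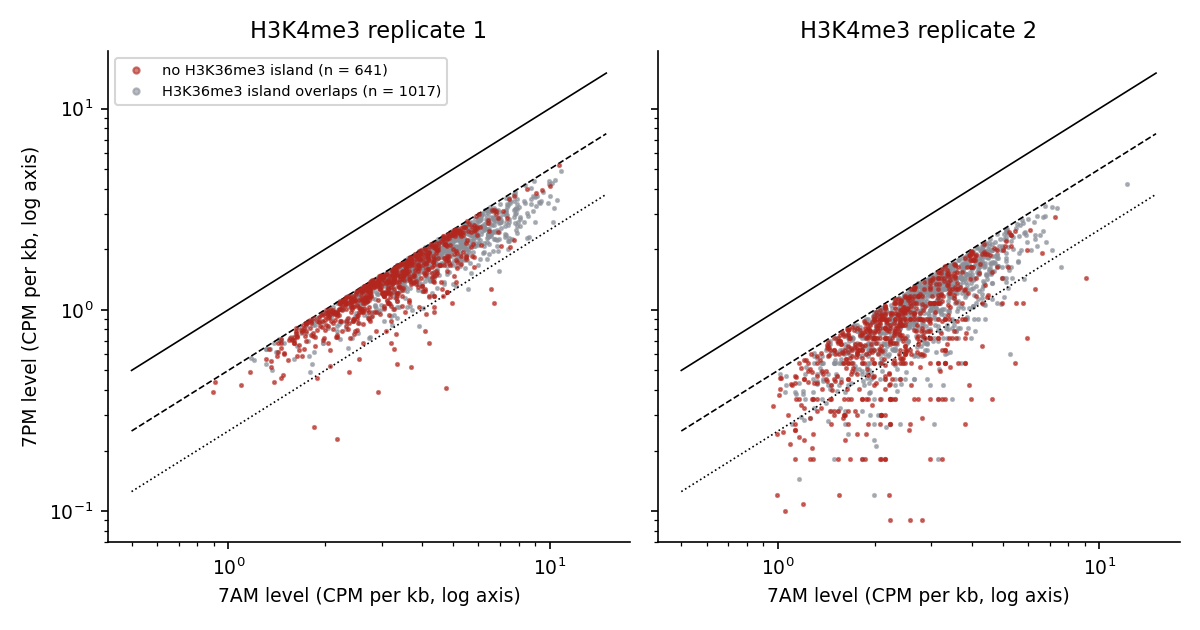
H3K4me3 level at 7PM (vertical, CPM per kb, log axis) against 7AM (horizontal, CPM per kb, log axis) in replicate 1 (left) and replicate 2 (right), 1 point per falling region, red for the 641 regions without a listed H3K36me3 island and grey for the 1017 with one. The solid line marks equal levels, the dashed line a 2-fold and the dotted line a 4-fold lower level at 7PM. Not drawn there are 1 red and 1 grey region with 0 reads at 7PM in 1 library. After adding 1 read, falls over 4-fold were found at 19 red and 3 grey regions in replicate 1. In replicate 2 they were found at 140 red and 102 grey regions. Red regions had fewer reads, with a median of 57 at 7AM in replicate 2, against 152 for grey.

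The lists hold islands that differ between 7PM and 7AM, so the 641 regions lack a listed H3K36me3 difference and may carry the mark. They were shorter than the regions with a listed H3K36me3 island and had lower H3K4me3 levels at 7AM. Their median length was 1200 bp, against 2000 bp for the regions with listed H3K36me3 islands, and together they covered 913.6 kb, against 2470.8 kb. The mean 7AM level of the 2 replicates had a median of 2.82 CPM per kb, against 3.61 in the regions with listed H3K36me3 islands. This gap in level was present within each length class: 2.89 against 3.63 CPM per kb up to 1000 bp, 2.58 against 3.64 from 1200 to 2000 bp, 3.05 against 3.60 from 2200 to 3000 bp, and 2.78 against 3.59 in longer regions. No test was made of these levels, because they belong to the contrast that chose the regions. The share of falling regions without a listed H3K36me3 island was 57.5% (95% exact binomial interval 53.0 to 61.8, 292 of 508) up to 1000 bp and 44.4% (40.1 to 48.7, 236 of 532) from 1200 to 2000 bp. It was 23.3% (18.7 to 28.4, 72 of 309) from 2200 to 3000 bp and 13.3% (9.69 to 17.6, 41 of 309) above that. A longer region has more room to meet an island, and the part of this in the order was not tested. The binomial intervals in this text take regions as independent draws and do not cover the variation between replicates.

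The rule separated the regions almost entirely by a fall of H3K36me3. Of the 1017 regions set aside, 1016 overlapped an H3K36me3 island that was lower at 7PM, and 1 met higher islands alone. The separation is sharp only in base pairs. Just inside the rule, the region on Peaxi162Scf00161 at 83001 to 85400 bordered directly on an H3K36me3 island, with 79 H3K4me3 reads at 7PM and 157 at 7AM in replicate 1, and 20 and 88 in replicate 2. The region on Peaxi162Scf00074 at 315801 to 316800 lay 200 bp from one, with 42 reads at 7PM and 67 at 7AM, and 7 and 22 in replicate 2. Just outside, regions on Peaxi162Scf00003 at 3016201 to 3016600 and on Peaxi162Scf00008 at 1257801 to 1258600 shared 200 bp with an H3K36me3 island. Their H3K4me3 log2 folds were −1.68 ± 0.81 and −1.16 ± 0.16 (SD, n = 2 replicate pairs), which lie within the range of the 641.

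Around the 641 regions, the nearest H3K36me3 island was at a median distance of 12.2 kb, and 9 regions lay on scaffolds without any. Where such an island was close, it was mostly one that was lower in the evening. The H3K36me3 lists took part in choosing the regions, since those overlapping an island were set aside. The shares below are therefore a description and were not tested. The nearest island was lower at 7PM for 49 of the 53 regions with one within 1 kb (92.5%, 95% exact binomial interval 81.8 to 97.9), for 107 of 127 at over 1 to 5 kb (84.3%, 76.7 to 90.1) and for 76 of 106 at over 5 to 10 kb (71.7%, 62.1 to 80.02). At over 10 to 50 kb it was 176 of 275 (64.0%, 58.02 to 69.7), and beyond 50 kb 34 of 71 (47.9%, 35.9 to 60.1). Among all 25251 listed H3K36me3 islands, 60.8% were lower, which is a share over islands and not over matched positions. The order held in each replicate taken alone: within 5 kb the nearest island was lower in 48 of 57 cases in replicate 1, where 47.9% of islands were lower, and in 143 of 160 in replicate 3, where 66.5% were. Beyond 50 kb the shares were 52.1% in replicate 1 and 60.4% in replicate 3. Lower H3K36me3 islands had a median length of 3200 bp, against 1000 bp for higher ones, and the part of this length in the order of shares was not tested.

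**Figure D2:**
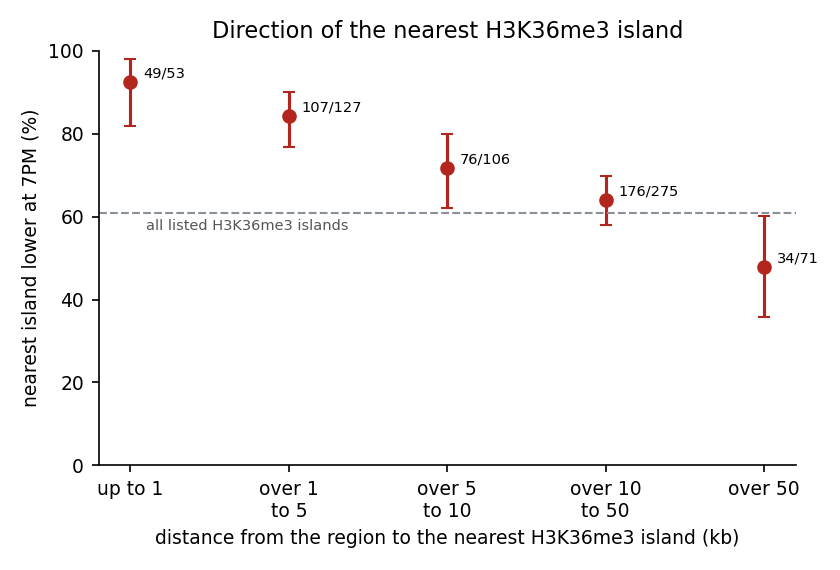
Share of regions whose nearest H3K36me3 island was lower at 7PM (vertical, percent) by distance to that island (horizontal, kb), over the 632 regions with such an island on their scaffold; error bars are 95% exact binomial intervals and the dashed line is the share among all listed islands. The share was 92.5% within 1 kb and 47.9% beyond 50 kb.

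The largest H3K4me3 differences of the set are given as a description, since these values chose the regions. H3K4me3 was over 4-fold lower in both replicates at 11 of the 641 regions, against 0.724% of all 1658 regions. Only 3 of the 11 had at least 50 reads at 7AM in both replicates. The 11 were 200 to 1800 bp long, and 7 of the 11 carried an acetylation island, against 62.7% of all 1658 falling regions. Among regions with at least 50 reads at 7AM in both replicates, the largest difference was on Peaxi162Scf00047 at 2205001 to 2206200. Its H3K4me3 level was 0.411 and 0.289 CPM per kb in the 7PM libraries of replicates 1 and 2, against 4.75 and 2.81 in the 7AM libraries. Both evening libraries were thus almost without signal, and H3K27ac and H3K9ac were listed lower there in both of their replicates. On Peaxi162Scf00078 at 782201 to 784000 the level was 0.956 and 0.593 CPM per kb at 7PM, against 4.13 and 2.84 at 7AM. On Peaxi162Scf00714 at 595401 to 597200 there were 21 and 5 H3K4me3 reads at 7PM, against 60 and 57 at 7AM, or −2.60 ± 0.78 on the log2 scale (mean ± SD of 2 replicate pairs), so that its replicates differed more in size than those of the regions before it. At both places acetylation of either kind was listed lower in replicate 1 and unlisted in replicate 2.

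Further strong differences with good coverage had varied acetylation. On Peaxi162Scf00316 at 514001 to 514600 H3K4me3 was 1.27 and 0.722 CPM per kb at 7PM and 4.61 and 3.59 at 7AM, with H3K27ac and H3K9ac listed lower in both replicates. On Peaxi162Scf00016 at 1703601 to 1704600 it was 2.21 and 1.19 CPM per kb at 7PM and 7.75 and 4.50 at 7AM, among the higher morning levels of the set, while H3K27ac was in no list there. The same held on Peaxi162Scf00228 at 680601 to 681400, with 2.05 and 1.93 CPM per kb at 7PM and 7.54 and 6.62 at 7AM. In both of these regions H3K9ac was listed lower in replicate 1 alone. On Peaxi162Scf00102 at 160001 to 160800 the log2 fold of H3K4me3 was −2.01 ± 0.39 (SD, n = 2 replicate pairs), and on Peaxi162Scf00498 at 377601 to 381600 it was −2.04 ± 0.47. The evening libraries lay below the morning libraries at all of these 5 places.

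The long regions of the set differed among themselves in acetylation. The longest covered 13.8 kb of Peaxi162Scf00129, from 1566201 to 1580000, with 1022 H3K4me3 reads at 7PM and 2041 at 7AM in replicate 1, and 330 and 1212 in replicate 2. An H3K36me3 island came no nearer than 7.2 kb, H3K27ac was lower in replicate 2 alone and H3K9ac in replicate 1 alone. The region of 7.2 kb on Peaxi162Scf00262 at 316801 to 324000 had an H3K4me3 log2 fold of −1.15 ± 0.02, but H3K9ac was listed higher in both replicates and H3K27ac higher in replicate 2. On Peaxi162Scf01270 at 144401 to 151600, where H3K4me3 differed by −1.14 ± 0.13, H3K9ac was listed higher in replicate 2 and H3K27ac was unlisted. The region on Peaxi162Scf00332 at 198201 to 204600 (−1.30 ± 0.42) carried no acetylation island.

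Most of the 641 regions stood alone on their scaffold or far from the next. Of the 407 scaffolds, 283 held 1 region and 53 held 3 or more, and another region of the set lay within 10 kb of 28 regions. The scaffolds with the highest counts were Peaxi162Scf00016 (13 regions over 2646 kb), Peaxi162Scf00045 (11 over 2438.8 kb) and Peaxi162Scf00038 (9 over 1514.4 kb). Within 50 kb, 3 regions came together at 3 places, the tightest on Peaxi162Scf00038 at 1078801 to 1102600, where the H3K4me3 log2 folds lay between −2.31 and −1.46. All 3 of these had H3K9ac listed lower in replicate 1, and the last also had H3K27ac lower in both replicates. The other places were Peaxi162Scf00802 at 281401 to 320800 and Peaxi162Scf00299 at 244801 to 291800, where no H3K27ac island was listed. On 230 of the 407 scaffolds a falling H3K4me3 region with an H3K36me3 island was present as well.

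Acetylation, which took no part in choosing the regions, was listed as changed at 382 of the 641 (59.6%, 95% exact binomial interval 55.7 to 63.4), against 62.7% of all 1658 falling regions. Both acetyl marks were listed at 175 regions (27.3%, against 28.6% of all), H3K9ac alone at 167 (26.1%, against 29.1%), H3K27ac alone at 40 (6.24%, against 5.01%) and neither at 259 (40.4%, against 37.3%). H3K27ac islands of either replicate and direction were found at 215 regions (33.5%, 29.9 to 37.3), against 33.7% of all 1658 falling regions. H3K9ac islands were found at 342 regions (53.4%, 49.4 to 57.3), against 57.7% of all falling regions. The H3K27ac share therefore lay near the background, and the H3K9ac background was above the point value and just outside its interval. Within length classes the intervals of regions without and with a listed H3K36me3 island overlapped: for H3K27ac 26.4% against 25.5% up to 1000 bp and 48.6% against 34.6% from 2200 to 3000 bp, for H3K9ac 46.9% against 50.9% and 66.7% against 58.2%. These shares were not tested against each other.

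**Figure D3:**
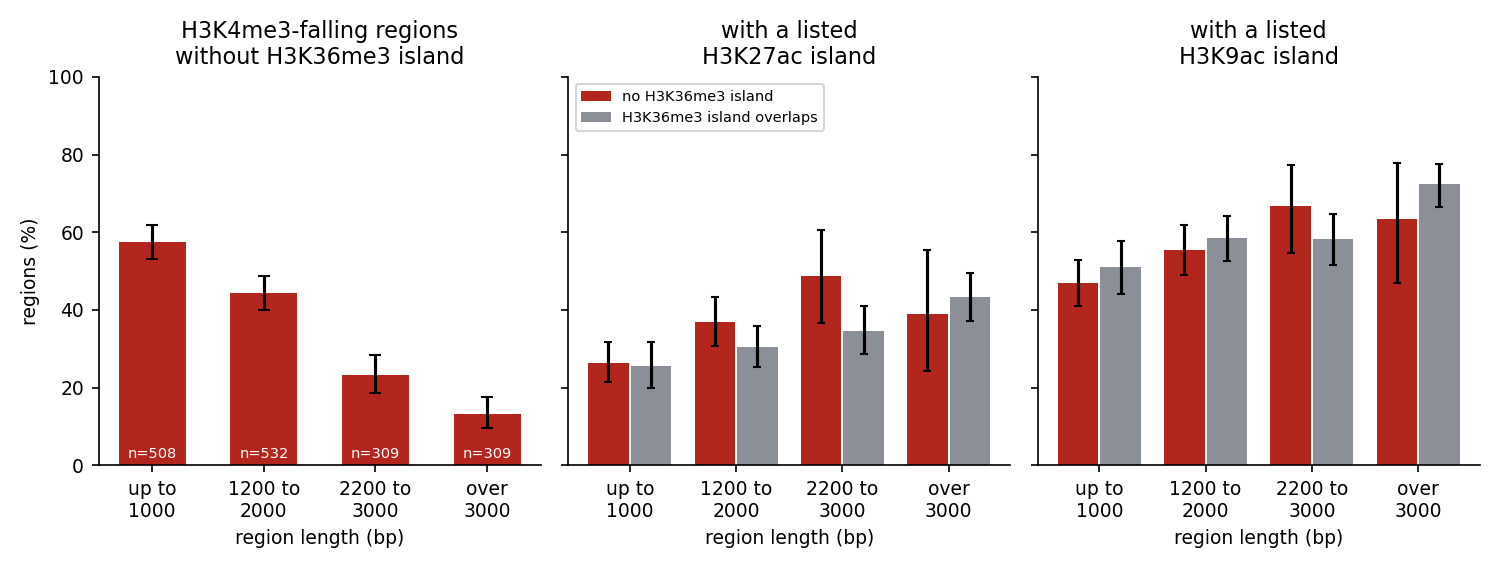
Left, the share of all falling H3K4me3 regions without a listed H3K36me3 island (vertical, percent) by region length (horizontal, bp), with the number of regions in each class. Middle and right, the share with a listed H3K27ac or H3K9ac island in regions without (red) and with (grey) a listed H3K36me3 island; error bars are 95% exact binomial intervals, which overlap between red and grey in each class, while the left panel runs from 57.5% down to 13.3%.

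Where H3K27ac was listed, it was mostly lower, as H3K4me3 was. In replicate 1 it was lower at 166 of the 641 regions (25.9%, against 26.5% of all falling regions) and higher at 6 (0.936%, against 0.724%). In replicate 2 it was lower at 97 (15.1%, against 14.8%) and higher at 29 (4.52%, against 4.16%). It was lower in both replicates at 69 regions (10.8%, against 10.9% of all falling regions) and higher in both at 4 (0.624%, against 0.422%). It was lower in replicate 1 and higher in replicate 2 at 4 regions, 200 to 600 bp long. H3K9ac gave unlike pictures in its replicates: replicate 1 had 270 regions lower (42.1%, against 49.1% of all falling regions) and 8 higher (1.25%, against 0.965%), while replicate 2 had 30 lower (4.68%, against 4.46%) and 71 higher (11.1%, against 8.93%). It was lower in both at 28 regions (4.37%, against 4.10% of all falling regions) and higher in both at 6 (0.936%, against 0.663%). Of the 71 regions with a higher H3K9ac island in replicate 2, 62 had no H3K9ac island in replicate 1 and 3 had a lower one. Among all falling regions these were 122 and 15 of 148. The whole lists differed too: replicate 1 held 21714 lower and 5699 higher H3K9ac islands, and replicate 2 held 5331 and 6415. The higher islands of replicate 2 at the 641 regions were not thin in reads, with medians of 92.5 reads at 7PM and 32.5 at 7AM. The lower islands of replicate 2 there had 29.5 and 56.5. A direction of H3K9ac is therefore given below only where both replicates had it.

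**Figure D4:**
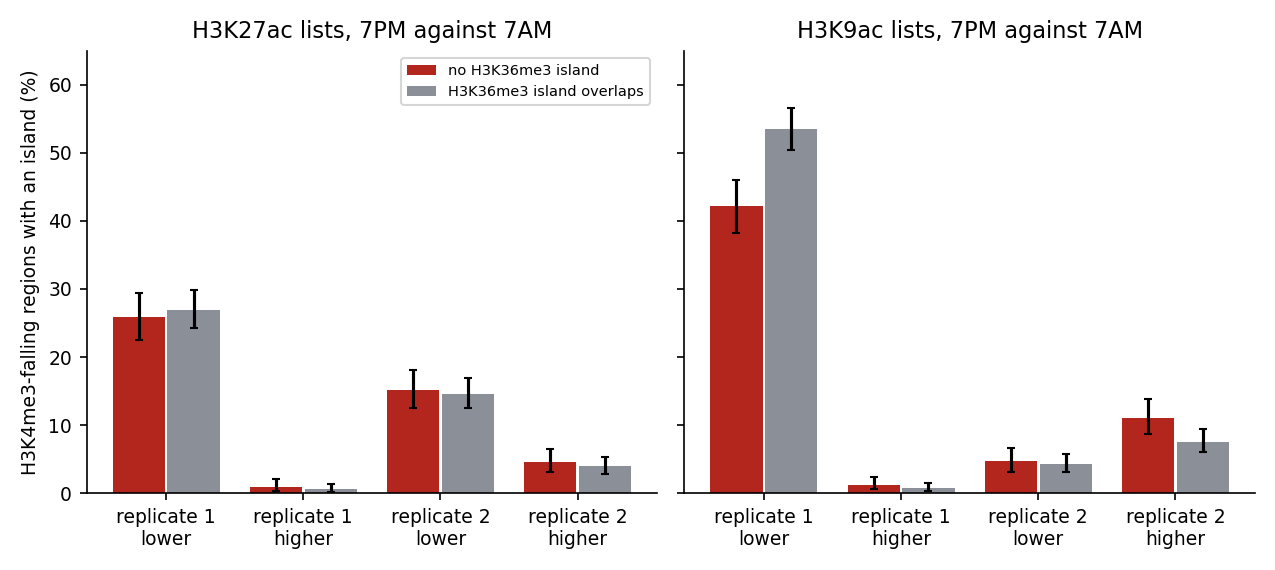
Share of falling H3K4me3 regions that overlap an island of each deposited list (vertical, percent) for H3K27ac (left) and H3K9ac (right), by replicate and direction at 7PM, in 641 regions without (red) and 1017 with (grey) a listed H3K36me3 island; error bars are 95% exact binomial intervals. Lower islands prevailed in both H3K27ac replicates and in H3K9ac replicate 1, whereas in H3K9ac replicate 2 the 11.1% with higher islands exceeded the 4.68% with lower ones.

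H3K27ac was tested over the 4371 regions of the genome that had H3K27ac islands in both replicates, with the deposited counts, edgeR's quasi-likelihood test and the replicate pair as a block. Of the 84 such H3K27ac regions that overlapped the 641, it fell at 75 and rose at 5 at an adjusted p under 0.05. This is 89.3% lower, against 83.2% of all tested regions, and 5.95% higher, against 9.56%. The 1017 regions with listed H3K36me3 islands met 129 H3K27ac regions, of which 124 fell and 4 rose. The 4 uncalled H3K27ac regions went opposite ways in the replicates. Because a region entered the test only after being listed as changed in each pair, a high share of calls follows from the lists. The adjusted p-values given below for single regions rest on these same counts and are not independent evidence of a change. With TMM scaling, which centres the tested regions near no change and moves their log2 folds up by 1.40, 2 of the 84 were lower and 5 higher, so the falls are relative to the library total.

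Where H3K27ac was listed lower in both replicates, its median log2 fold was −1.44 over the 75 regions, against −1.47 over all such regions. Its regions were broader than the H3K4me3 regions beneath them, with a median of 3600 bp against 1600 bp over the 85 overlaps, and they covered the H3K4me3 region completely in 61. The centres lay a median of 600 bp apart. The sizes of the differences of both marks had a correlation near zero across the 76 overlaps with lower H3K27ac (Spearman rho = −0.04, Pearson r = −0.08, as a description), and H3K27ac had the larger fold in 47 of them. The lists cut both marks at a 2-fold fall, so this cannot show whether their sizes are related. Over 4-fold falls in both replicates were found at 5 of the 84 H3K27ac regions, against 5.17% of all tested.

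The H3K27ac regions with the lowest folds lay over H3K4me3 log2 folds between −1.62 and −1.16. On Peaxi162Scf00166 the H3K27ac region at 521401 to 522200 had 5 and 0 reads at 7PM in replicates 1 and 2, against 24 and 23 at 7AM, and H3K27ac fell there with an edgeR adjusted p of 0.032, while H3K4me3 differed by −1.23 ± 0.27. On Peaxi162Scf00951 at 360001 to 361200 H3K27ac had 3 and 2 reads at 7PM and 33 and 20 at 7AM, giving −3.23 ± 0.25 on the log2 scale (edgeR adjusted p = 0.0062). On Peaxi162Scf00450 at 697601 to 699600 there were 5 and 4 reads at 7PM against 46 and 28 at 7AM. In these 3 regions almost no evening signal was left, but the morning signal was also low. The best covered of them was on Peaxi162Scf00114 at 798401 to 808000, where H3K27ac stood at 12.5 and 8.68 CPM at 7PM, against 73.7 and 61.3 at 7AM, a fold of −2.68 ± 0.18 (edgeR adjusted p = 0.0062). The H3K4me3 region inside it, at 804401 to 807800, had 2.08 and 1.52 CPM per kb at 7PM and 7.08 and 4.23 at 7AM, and no H3K36me3 island came nearer than 2.6 kb. H3K27ac also fell on Peaxi162Scf00970 at 87201 to 89400 (−2.23 ± 0.22) and on Peaxi162Scf03779 at 88001 to 92400 (−2.12 ± 0.78). All 6 of these regions had H3K9ac listed lower in both replicates. With TMM scaling 4 of the 6, those on Peaxi162Scf00166, Peaxi162Scf00951, Peaxi162Scf00970 and Peaxi162Scf03779, no longer passed.

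H3K27ac rose at 5 places where H3K4me3 was lower, so that the marks went opposite ways. On Peaxi162Scf00008 at 3517801 to 3526200 H3K27ac had 679 and 375 reads at 7PM, against 200 and 68 at 7AM, or 1.82 ± 0.54 on the log2 scale (edgeR adjusted p = 0.0076). The H3K4me3 region in it, at 3518401 to 3520200, had 75 and 12 reads at 7PM and 111 and 28 at 7AM, and its replicate 2 reads covered only part of that span. Both H3K27ac evening libraries were thus far above both morning libraries (48.0 and 47.2 CPM against 17.6 and 10.1), while H3K4me3 was lower in both pairs. On Peaxi162Scf01141 at 112601 to 116000 H3K27ac stood at 11.4 and 10.4 CPM at 7PM and at 3.61 and 4.46 at 7AM (1.41 ± 0.31, edgeR adjusted p = 0.0062), over an H3K4me3 difference of −1.50 ± 0.53. On Peaxi162Scf00449 at 644001 to 645200 it had 49 and 45 reads at 7PM, against 19 and 11 at 7AM (1.35 ± 0.49, edgeR adjusted p = 0.013). On Peaxi162Scf00138 at 185201 to 187800 the fold was 1.18 ± 0.22, with 250 and 110 reads at 7PM and 79 and 45 at 7AM. The last, on Peaxi162Scf00493 at 74601 to 88800, is a broad H3K27ac region around an H3K4me3 region of 600 bp, and its replicate 1 islands did not touch that region. It had a fold of 1.17 ± 0.07 and did not pass without the replicate block (edgeR adjusted p = 0.062). These H3K4me3 regions lay 10.0 to 36.2 kb from the nearest H3K36me3 island.

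**Figure D5:**
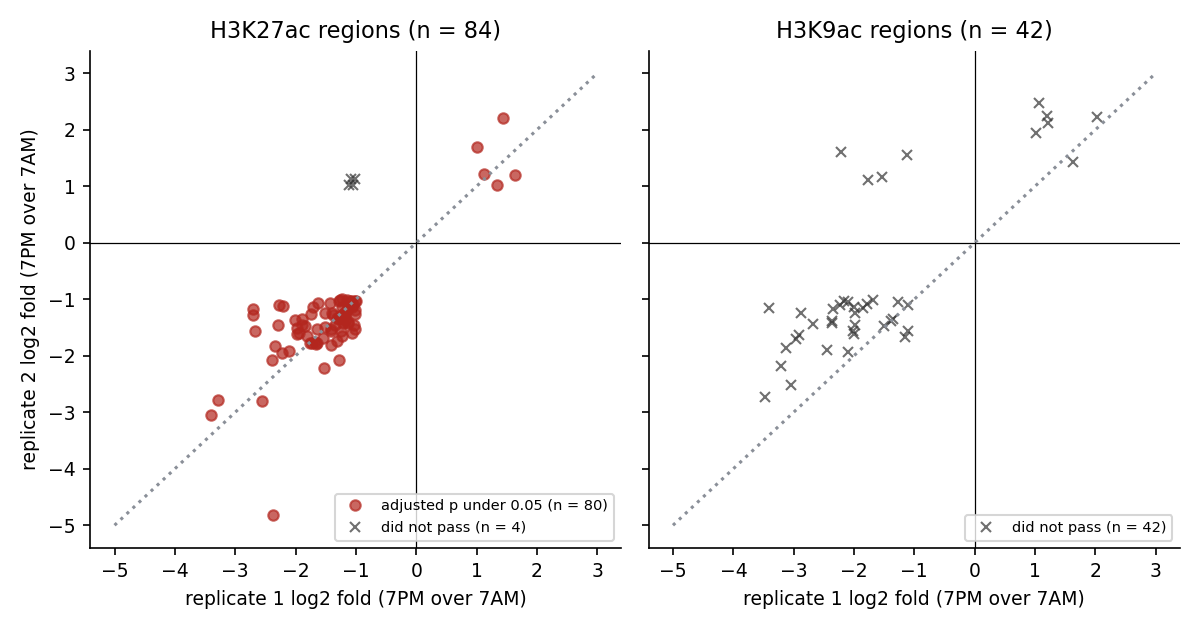
Log2 fold of 7PM over 7AM in replicate 1 (horizontal) and replicate 2 (vertical) for the 84 H3K27ac regions (left) and the 42 H3K9ac regions (right) that overlap the 641 H3K4me3 regions; filled red points passed an edgeR adjusted p of 0.05, crosses did not, and the dotted line marks equal folds. H3K27ac has 75 points at the lower left and 5 at the upper right, and the H3K9ac points in the lower left lie mostly above the line, with the larger difference in replicate 1.

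For H3K9ac the same test covered 2424 regions of the genome, and edgeR called 0 of them lower (0.000%) and 0 higher (0.000%) at an adjusted p of 0.05. These regions too entered the test only after being listed as changed in each pair. On simulated data this fit recovered 0% of 2-fold and 6% of 4-fold changes. The lack of calls therefore does not show a lack of change. Of the 42 H3K9ac regions at the 641 regions, 32 were listed lower in both replicates, 6 higher in both and 4 in opposite directions. At an unadjusted p under 0.05, edgeR had 23 of the 42 lower, against 35.1% of all, and 5 higher, against 11.7%. DESeq2 called 21 lower and 3 higher among 40 with an adjusted p, against 24.0% and 9.43% of all. With a minimum of 50 reads in whichever library was higher, 22 of the 42 were left, against 598 of the 2424. Of these 22, edgeR had 16 lower and 5 higher, against 52.8% and 25.9% of all such regions. The 42 were also longer than all tested regions, with a median of 2900 bp against 2000 bp. The part of length and read depth in these shares was not tested. The falling regions with a listed H3K36me3 island met 70 tested H3K9ac regions. Of these, edgeR had 39 lower and 4 higher at an unadjusted p under 0.05, and DESeq2 called 41 and 2. With the minimum of 50 reads 40 were left, of which edgeR had 31 lower and 2 higher. Most H3K9ac regions were thus lower in both sets, which were not tested against each other. The common biological coefficient of variation of the fit was 0.471 for H3K9ac and 0.137 for H3K27ac, and 668 of the 2424 regions had opposite directions in the replicates. Over the 32 lower regions of the 42 the median log2 fold was −1.74, against −1.58 over all regions listed lower in both replicates. It was −1.77 over those at falling regions with a listed H3K36me3 island. H3K9ac was over 4-fold lower in both replicates at 3 of the 42, against 2.39% of all.

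The lowest H3K9ac value was on Peaxi162Scf03779 at 87601 to 92400, with 31 and 31 reads at 7PM and 314 and 174 at 7AM (log2 fold −3.10 ± 0.53, SD, n = 2 replicate pairs; edgeR adjusted p = 0.105). The others, on Peaxi162Scf00450 (−2.78 ± 0.37), Peaxi162Scf00166 (−2.69 ± 0.72) and Peaxi162Scf00951 (−2.49 ± 0.89), were all among the 6 places of the H3K27ac falls named above. The highest value was on Peaxi162Scf01290 at 300801 to 301200, with 50 and 78 reads at 7PM and 10 and 13 at 7AM (2.13 ± 0.13, edgeR adjusted p = 0.105). There H3K4me3 was 4.11 and 1.44 CPM per kb at 7PM, against 10.1 and 9.11 at 7AM, in a window of 200 bp, and H3K27ac was listed higher in replicate 2. H3K9ac was also higher on Peaxi162Scf00449 (1.77 ± 0.99) and Peaxi162Scf01141 (1.72 ± 0.75), both of which had the H3K27ac rises given above, and on Peaxi162Scf00011 at 1415401 to 1417000 (1.67 ± 0.64). None of these 8 passed the edgeR test as designed, and evening and morning libraries did not overlap in CPM at any of them. With the minimum of 50 reads 4 of them passed edgeR, those on Peaxi162Scf03779 (adjusted p = 0.000119), Peaxi162Scf01290 (0.00617), Peaxi162Scf00449 (0.0142) and Peaxi162Scf01141 (0.0177). That filter kept a region by whichever library of each pair was higher. All 8 had been listed as changed by these same counts, so these passes and the calls below are not independent evidence. DESeq2 called 6 of the 8, all but those on Peaxi162Scf00449 and Peaxi162Scf00011, with adjusted p between 6.5e-06 and 0.027. With TMM scaling the edgeR test called 5, all 4 higher ones and that on Peaxi162Scf03779 (adjusted p = 0.00137).

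Taking both acetyl marks, 22 of the 641 regions had lower islands in all 4 acetylation comparisons (3.43%, against 3.32% of all falling regions), and 2 had higher islands in all 4 (0.312%, against 0.241%). The 259 regions without any acetylation island had a median length of 1000 bp, against 1400 bp for the 175 with both acetyl marks. Their H3K4me3 values lay close together, with a median 7AM level of 2.79 CPM per kb against 2.85 and a median log2 fold of −1.33 in each. An acetylation island lay within 1 kb of 64 of the 259 (24.7%) and within 5 kb of 142 (54.8%). These distances were not computed for other falling regions or other positions, so the shares do not show that acetylation islands were unusually near. Islands that did not pass the authors' threshold are not in the lists, so an unlisted mark is not shown to be unchanged at a region.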

How the data were processed

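ChIP-seq of 4 histone marks in corolla tissue was analysed from 16 deposited lists. The submitters' processing notes name cutadapt, Bowtie2 and SICER 1.1. Their settings and the genome build are not stated in the labels, and scaffold names and coordinates are those of the files, counted from 1. Each list compares one 7PM with one 7AM library of the same replicate number. The authors' deposited columns are read counts, the same counts as CPM, the fold (ratio) between libraries, and a p-value and FDR per direction; the smallest fold in any list was 2.00 and the highest FDR 0.0097. Each library's total was computed by dividing counts by CPM.

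Counts of merged islands were summed per library. The reads of a region in a replicate are those of that replicate's islands, which may cover only part of the region. Log2 folds add 1 read and scale by totals. H3K27ac and H3K9ac were tested with edgeR 4.0.16 (R 4.3.3), quasi-likelihood, robust, with library totals and the replicate as a block, because borders were set per pair and the authors compared same-numbered libraries; across regions, same-numbered libraries deviated together (r = 0.52 for H3K27ac, 0.48 for H3K9ac). P-values were adjusted by Benjamini-Hochberg over all regions tested. On simulated data for H3K27ac (4371 regions) 46% of 2-fold changes were recovered and 96% of 4-fold ones; for H3K9ac (2424 regions) it was 0% and 6%. The simulation changed 200 regions, up and down alike, and left the others unchanged. In the data the tested regions were listed as changed beforehand and mostly fell, so these rates need not hold there. Shares have exact (Clopper-Pearson) intervals. DESeq2 1.42.0, other scalings, filters and overlaps were alternatives. Regions were named by size rules for H3K4me3, length, H3K27ac, H3K9ac, clustering and closeness to the rule's limit. The regions, lists and rules were chosen with earlier results of these data known. In the shallowest library 3 reads are 0.446 CPM.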

Additional observations from a re-analysis of the deposited data

How the results depend on the processing

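The number of regions was 641, and 358 with at least 50 reads at 7AM; it was 564 with 50% reciprocal overlap, 564 at an FDR of 1e-05, 588 with no H3K36me3 island within 1 kb, and 2734 to 6204 when 1 replicate alone defined the regions. The share with an H3K27ac island was 29.4% at an FDR of 1e-05 and 23.2% to 25.4% from single H3K4me3 replicates. The H3K9ac share was 58.4% with 50 reads and 32.3% to 42.3% from single replicates. The median H3K4me3 log2 fold stayed between −1.38 and −1.18 under all of these. H3K27ac calls at the regions, 80 in the fit reported, numbered 7 with TMM and 7 with median-of-ratios scaling, since both centre regions that mostly fell; DESeq2 gave 80. H3K9ac calls, 0 in the fit reported, numbered 11 with TMM, 10 with median-of-ratios scaling, 24 with DESeq2 and 21 with a filter of 50 reads. Without the replicate block, edgeR called 65 H3K27ac and 0 H3K9ac regions. With 1 acetylation replicate there is no test, and 126 to 172 regions were listed for H3K27ac and 101 to 278 for H3K9ac. The H3K4me3 regions named for size or length and the acetylation regions named for their folds kept their direction under the alternatives that gave them a value; for H3K4me3, and for acetylation with 1 replicate left out, the choice of regions fixes this, and the other named regions were not recomputed. For those on Peaxi162Scf00005, Peaxi162Scf00420 and Peaxi162Scf00688, H3K9ac has opposite signs in its replicates. Why H3K9ac calls differ between tools was not tested. The 2 replicates per mark, the H3K27ac depth and the lists' threshold limit what can be seen.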

Other observations

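One region on Peaxi162Scf00316 outside the set lies close to a member of it. At 500801 to 503600 H3K4me3 was over 4-fold lower in both replicates (223 and 71 reads at 7PM, 667 and 357 at 7AM), the only such region among the 1017 with an H3K36me3 island. It lies 10.4 kb from the H3K4me3 region at 514001 that is among the largest differences without a listed H3K36me3 island. This pair was chosen after its values were seen.

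One of the 641 regions, on Peaxi162Scf00432 at 968601 to 969800, also overlapped a rising H3K4me3 island; its falling islands had 88 reads at 7PM and 122 at 7AM in replicate 1, and 4 and 36 in replicate 2. One region, on Peaxi162Scf00445 at 1040601 to 1040800, had 0 reads at 7PM in replicate 2, against 18 at 7AM, and 7 and 29 in replicate 1. The 3 regions with H3K9ac lower in replicate 1 and higher in replicate 2 lay on Peaxi162Scf00005, Peaxi162Scf00420 and Peaxi162Scf00688, and none of them had an H3K27ac island.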
